A study of Mus musculus with 9 samples.

Results

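The Notch pathway was examined in AML12 cells, a line of mouse hepatocytes, through 10 of its genes: the receptors *Notch1*, *Notch2*, *Notch3* and *Notch4*, the ligands *Jag1*, *Jag2* and *Dll1*, and the target genes *Hes1*, *Hey1* and *Heyl*. These genes were chosen by their symbols when fold changes of each hairpin against the control, taken from the same libraries, were already known, so their values are given as a description and no test was made on them. All 10 symbols matched a GENCODE M1 gene. Of the 10, 9 are listed in both deposited tables, which share 13259 genes, and 7 of those 9 reached a mean of 10 in each table. *Heyl* is listed in neither table.

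RNA was sequenced from 9 libraries, with 3 from cells labelled as control for the shRNA, 3 from cells infected for 5 days with a lentivirus for *Srrm2* shRNA 1 and 3 for *Srrm2* shRNA 2. *Srrm2* encodes a scaffold protein of nuclear speckles. All cells were grown with insulin, transferrin, selenium and dexamethasone, and all belong to 1 cell line, which was derived from mice carrying a transgene for human TGF-alpha, so the libraries are cultures of a line and not animals. The labels do not say whether the 3 libraries of a group came from separate infections.

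Each table gives, for a gene, 1 mean normalized count over 6 libraries, taken here to be the 3 control libraries together with the 3 libraries of 1 hairpin. The labels tie all 3 control libraries to the shRNA 1 table, but only 1 of them to the shRNA 2 table, and the other two name tables of further hairpins that were not used here, so that all 3 controls stand behind both means is an assumption. The mean from the control and shRNA 1 libraries is called the shRNA 1 mean below, and that from the control and shRNA 2 libraries the shRNA 2 mean. Under this assumption a difference between the means comes from the hairpin libraries, and 2 times that difference is the difference between the hairpin groups in normalized counts. If the control libraries differed between the tables, the ratios below would include that difference, and the differences between hairpin groups and the limits on the control would not hold. The shRNA 2 means were first lowered by 0.07 on the log2 scale, which made the median gene with means of 100 or more equal in both tables. Values of single libraries were not used here, so no error between replicates, no interval and no p-value accompanies these values, and the change of either hairpin against the control alone is not given.

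Notch receptors are single-pass membrane proteins that are activated by ligands of the Jagged and Delta families on a neighbouring cell. Ligand binding leads to cleavage by an ADAM protease and then by gamma-secretase, and the freed intracellular part enters the nucleus, where it joins RBPJ and a Mastermind protein to switch on genes such as those of the Hes and Hey families of repressors. In the liver the pathway is known for its part in forming bile ducts, and loss of 1 copy of *JAG1* or *NOTCH2* in people causes Alagille syndrome, a disease with too few bile ducts.

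Among the 9 listed Notch genes, *Notch3* and *Notch4* had the lowest ratios of the shRNA 2 mean to the shRNA 1 mean. *Notch3* lay 1.59-fold and *Notch4* 1.37-fold lower in the shRNA 2 mean. *Notch1*, *Notch2* and *Jag1*, which had the highest counts, were between 1.04-fold and 1.17-fold higher in the shRNA 2 mean. *Hes1* was 1.05-fold lower after alignment and nearly equal before it. Beyond a log2 ratio of 0.32 in either direction, the limit used throughout, 2 of the 7 Notch genes that reached a mean of 10 lay lower with shRNA 2 and 0 lay higher. Over all 11451 genes with such means, 4.28% lay lower and 4.02% lay higher, and 8.3% were past this limit in either direction. Nothing is read from the count of 2 against these shares, since fold changes of the same libraries were known when the genes were chosen.

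The promoters of *Notch3* and *Notch4* are shown because these were the only Notch genes past the limit among those 7. Each window is that of RefSeq on GRCm38.p6, from 250 bases before to 50 bases after the start of the gene, read 5′ to 3′ on the strand of the gene, with each CG dinucleotide in capitals. That of *Notch3* is chr17:32166841-32167140 on the - strand and that of *Notch4* is chr17:34564045-34564344 on the + strand.
Notch3: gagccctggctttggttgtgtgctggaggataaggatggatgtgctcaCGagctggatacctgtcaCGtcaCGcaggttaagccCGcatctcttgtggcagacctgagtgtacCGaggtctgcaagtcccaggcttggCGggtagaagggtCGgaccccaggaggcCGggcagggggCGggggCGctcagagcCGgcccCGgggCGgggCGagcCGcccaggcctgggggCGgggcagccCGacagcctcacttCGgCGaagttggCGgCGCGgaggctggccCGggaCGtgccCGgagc
Notch4: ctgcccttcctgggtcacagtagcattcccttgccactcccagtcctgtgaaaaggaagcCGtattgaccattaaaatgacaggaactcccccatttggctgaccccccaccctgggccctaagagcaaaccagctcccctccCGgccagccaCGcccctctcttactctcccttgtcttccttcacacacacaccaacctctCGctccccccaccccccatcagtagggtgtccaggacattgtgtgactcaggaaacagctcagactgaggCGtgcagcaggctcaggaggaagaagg

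The *Notch3* window holds 25 CG dinucleotides at a GC content of 70.0%, whereas the *Notch4* window holds 5 at 58.3%. The median window of all 32851 in the RefSeq table has 7 and a GC content of 52.7%. Of the 10 Notch genes, 7 had a window in this table, with a pair of windows for *Dll1*. *Hes1*, *Hey1* and *Heyl* had none. The letters TGGGAA, the core of the RBPJ binding site, were searched on both strands. They were in 0 of the 8 windows of Notch genes, and in 25.6% of all windows. These 8 windows are of receptors and ligands only. Their GC content ran from 55.7% for *Jag1* to 86.0% for *Jag2*, above the median of all windows, so the share over all windows is not matched for base composition. The absence of these letters from the windows says nothing on the binding of RBPJ elsewhere in these genes.

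Of the receptors, *Notch2* (ENSMUSG00000027878.9), which acts with *Jag1* in bile duct formation, had the highest level. It maps to mm9 chromosome 3 (+ strand, 97817461 to 97954290). The shRNA 1 mean was 2694 normalized counts and the aligned shRNA 2 mean 2815, a log2 ratio of 0.06. *Notch1* (ENSMUSG00000026923.8; chromosome 2, - strand, 26313423 to 26372183), the receptor best known from blood and vessel development, had 1719 and 1856 normalized counts, a log2 ratio of 0.11. The hairpin groups differed by 242 normalized counts for *Notch2* and by 273 for *Notch1*, in each case higher with shRNA 2, and since the pooled means include the controls, the fold between the hairpin groups has no upper limit here. Among the 500 genes of nearest level, the middle 95% of log2 ratios ran from -0.29 to 0.24 for *Notch2* and from -0.29 to 0.25 for *Notch1*, and both genes lay inside.

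*Notch3* (ENSMUSG00000038146.7), a receptor known above all from the smooth muscle cells of arteries, maps to mm9 chromosome 17 (- strand, 32257765 to 32303825) and has 33 exons in its longest coding transcript. Its shRNA 1 mean was 288 normalized counts and its aligned shRNA 2 mean 181, a log2 ratio of -0.67. The group mean with shRNA 1 was thus 215 normalized counts above that with shRNA 2, and, sampling error aside and with shared controls, the hairpin groups differed by at least 1.59-fold whatever the control level was. The ratio was the 48th lowest of the 11451 genes. It lay outside the middle 95% of the 500 genes of nearest level, which ran from -0.37 to 0.29, and 0.2% of those genes lay as far from 0.

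*Notch4* (ENSMUSG00000015468.8), a receptor known mainly from endothelial cells, maps to the same chromosome (+ strand) from 34701213 to 34725448, 2443 kb from *Notch3* by their start coordinates. It had a shRNA 1 mean of 77.1 and an aligned shRNA 2 mean of 56.4 normalized counts, a log2 ratio of -0.45. The group mean with shRNA 1 was 41.5 normalized counts higher than with shRNA 2. The ratio stood just outside the middle 95% of the 500 genes of nearest level, from -0.42 to 0.50, and 5.8% of those genes lay as far from 0 in either direction, so *Notch4* stood less apart than *Notch3*.

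**Figure D1:**
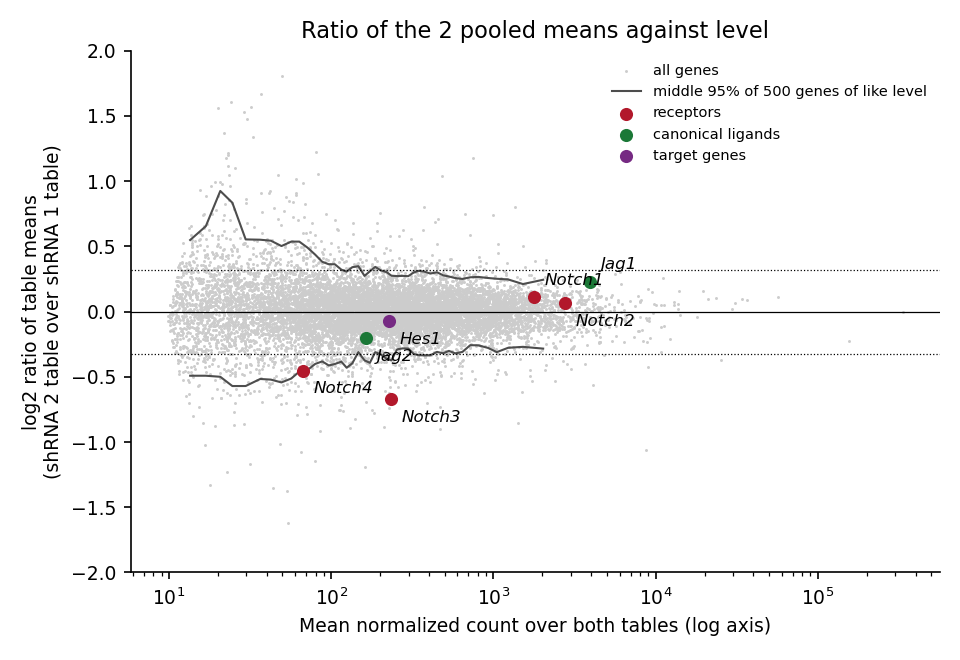
Log2 ratio of the shRNA 2 mean to the shRNA 1 mean (vertical axis) against the mean normalized count over both tables (horizontal axis, log scale). Grey points are the 11451 genes that reached a mean of 10 in each table, of which those past the vertical limits of 2 either way are not drawn, coloured points are Notch genes, solid lines bound the middle 95% of 500 genes of like level and dotted lines mark the limit of 0.32. *Notch3* lies below the lower solid line at -0.67 and *Notch4* at -0.45 lies close to it, while the other 5 Notch genes lie between -0.20 and 0.23.

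Differences between the receptors can also be given as shares of the receptor pool, for which counts were divided by the exon length of each gene. Per kilobase, *Notch2* made up 60.7% of the summed receptor level in the shRNA 1 mean and 62.6% in the shRNA 2 mean, and *Notch1* 28.6% and 30.5%. *Notch3* made up 8.48% and 5.25%, and *Notch4* 2.26% and 1.63%. The summed receptor level was 423 and 428 normalized counts per kilobase in the same order, a log2 ratio of 0.02, so the lower counts of *Notch3* and *Notch4* with shRNA 2 were a small part of a pool held mostly by *Notch2* and *Notch1*. In bulk RNA, fewer cells that express a gene cannot be told apart from less of its RNA per cell.

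As *Notch3* and *Notch4* are on one chromosome, their neighbours were listed. Of 9 further genes at a mean of 10 or more within 250 kb of *Notch3*, 1 lay past the limit lower with shRNA 2 (*Gm17549*, log2 ratio -0.38) and 2 lay higher, *Ephx3* with 0.41 and *Pglyrp2* with 1.61. Over all 9 the log2 ratios ran from -0.38 to 1.61 with a median of 0.12. Around *Notch4*, all 11 neighbours were within the limit, and their log2 ratios ran from -0.28 to 0.12 with a median of -0.19. On chromosome 17 as a whole, 4.93% of 568 genes lay lower and 3.17% higher with shRNA 2. These neighbours were named after their values were seen, as were *Fgb*, *Alb* and *Serpina1a* among the cell type markers below.

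Of the ligands, *Jag1* (ENSMUSG00000027276.7; chromosome 2, - strand, 136907192 to 136942380), the ligand whose loss causes Alagille syndrome, had the highest mean of all the Notch genes. The shRNA 1 mean was 3651 and the aligned shRNA 2 mean 4274 normalized counts, a log2 ratio of 0.23, so the hairpin groups differed by 1247 normalized counts, with shRNA 2 higher. This ratio was within the middle 95% of the 500 genes of nearest level, from -0.29 to 0.24, and 9.2% of those genes lay as far from 0. *Jag2* (ENSMUSG00000002799.5; chromosome 12, - strand, 114146801 to 114167706), a second Jagged ligand, went the other way with 176 and 153 normalized counts, a log2 ratio of -0.20 that lay inside the range of -0.38 to 0.27 of its nearest genes. *Dll1* (ENSMUSG00000014773.7; chromosome 17, - strand, 15504318 to 15513836), a Delta ligand, had 5.55 and 7.07 normalized counts. Its log2 ratio of 0.35 is past the limit and was not counted, since both means are below 10, where 38.8% of the 500 genes of nearest level lay as far from 0. *Jag1* held 93.3% and 94.9% of the summed level of these ligands per kilobase.

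Of the target genes, *Hes1* (ENSMUSG00000022528.7; chromosome 16, + strand, 30064470 to 30067882), a repressor switched on by Notch in many tissues, had 234 and 223 normalized counts, a log2 ratio of -0.07. The second of these means is the aligned one. With it, the shRNA 1 group was 22.1 normalized counts above the shRNA 2 group, and 61.4% of the 500 genes of nearest level lay as far from 0 or farther. The deposited means were 234.2 and 233.9, a log2 ratio of -0.0017 without alignment. The difference for *Hes1* thus comes almost wholly from the alignment. *Hey1* (ENSMUSG00000040289.3; chromosome 3, - strand, 8663362 to 8667039), a related repressor, had a shRNA 1 mean of 5.27 normalized counts and a log2 ratio of 0.09. A difference of 0.65 normalized counts between the hairpin groups at such a level is not interpretable. *Heyl* (ENSMUSG00000032744.4; chromosome 4, + strand, 122910799 to 122927118) had no value.

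The order of the genes by level was taken per kilobase of exons, since longer genes collect more reads. *Jag1* came first with 680 normalized counts per kilobase, averaged over both means, at percentile 97.4 of the listed genes. *Notch2* followed with 262, *Notch1* with 126, *Hes1* with 112, *Jag2* with 40.6, *Notch3* with 29.2, *Notch4* with 8.28, *Hey1* with 2.47 and *Dll1* with 1.49. The order was the same in each mean on its own, although the neighbours *Jag2* and *Notch3*, at 43.4 and 35.8 in the shRNA 1 mean, and *Notch1* and *Hes1*, at 121 and 115, were close there, and whether such neighbours differ beyond the spread of the libraries is not known.

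**Figure D2:**
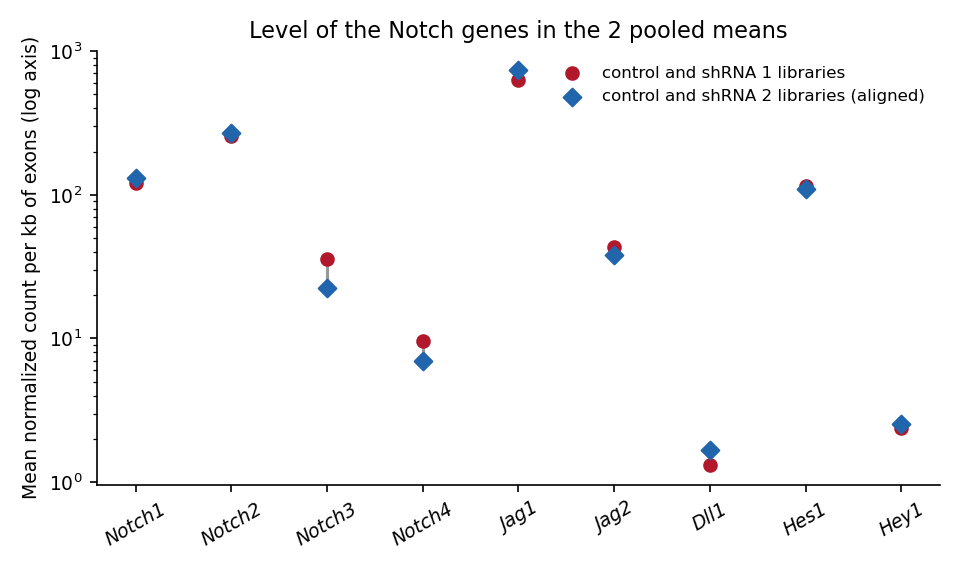
Mean normalized count per kilobase of exons (log axis) of the 9 listed Notch genes, with circles for the mean over control and shRNA 1 libraries and diamonds for the aligned mean over control and shRNA 2 libraries. Levels run from 1.31 for *Dll1* to 734 for *Jag1*, and the symbols stand visibly apart for *Notch3*, at 35.8 and 22.5, and for *Notch4*, at 9.57 and 6.99. No error bars are drawn because each symbol is 1 pooled mean.

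The other genes of the pathway were taken from a list of 65, grouped by role, of which 57 are in both tables and 54 reached a mean of 10. Of these 54, 1 lay past the limit lower with shRNA 2 and 2 higher, and the median log2 ratio was 0.01, against 0.0043 over all 11451 genes. Over all 11451 genes, 4.28% lay lower and 4.02% higher, so nothing particular to the pathway is read from these counts. In gamma-secretase, the protease complex that frees the intracellular part, 6 of 7 genes had such means, 0 were past the limit, and log2 ratios ran from -0.11 to 0.27. *Psenen*, *Ncstn* and *Aph1a* had the highest levels, with 356, 187 and 177 normalized counts per kilobase. The surface proteases were likewise within the limit, with log2 ratios of -0.08 for *Adam10*, which makes the cut after ligand binding, 0.0023 for *Adam17* and -0.12 for *Furin*, which cuts the receptor on its way to the surface.

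In the transcription complex, 8 of 9 genes had means of at least 10, 0 were past the limit, and log2 ratios ran from -0.05 to 0.15. *Rbpj*, the DNA-binding partner of the receptors, had 526 and 539 normalized counts before alignment and a log2 ratio of -0.03. The highest levels per kilobase in this group were those of the acetyltransferase genes *Ep300* (167) and *Crebbp* (128) and of the coactivator *Snw1* (157). All 11 corepressor genes had means of at least 10 and were within the limit, from -0.14 for *Tle4* to 0.22 for *Tle3*, and *Ctbp1* and *Ncor1* led by level with 303 and 182 normalized counts per kilobase. The 3 turnover genes *Fbxw7*, *Cdk8* and *Ccnc* had log2 ratios of 0.08, 0.01 and -0.09.

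Glycosyltransferases of the Fringe and O-fucose type tune which ligands a receptor answers to. Of 5 genes, 4 had means of at least 10 and 0 were past the limit, and *Pofut1*, *Poglut1* and *Rfng* led with 34.8, 20.5 and 18.6 normalized counts per kilobase. The fifth, *Mfng*, had deposited means of 9.96 and 4.96, a log2 ratio of -1.07 at a level where it was not counted.

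The genes past the limit were found among the ligands and the trafficking genes. *Dlk2*, a ligand-like protein without the domain that activates the receptors, had deposited means of 125 and 102 and a log2 ratio of -0.36. *Neurl1a*, an E3 ubiquitin ligase that acts on ligands, had 16.4 and 27.9 and a log2 ratio of 0.70. *Dtx3l*, of the Deltex family, had 169 and 225 and a log2 ratio of 0.34. *Dlk2* lay inside the middle 95% of its 500 genes of nearest level, from -0.43 to 0.33, and 6.6% lay as far from 0. *Neurl1a* was likewise inside, with a range of -0.59 to 0.97 and 6% as far from 0. *Dtx3l* lay just outside its range of -0.32 to 0.33, with 3.6% as far from 0. *Mib1*, *Dtx4* and *Dtx3*, the trafficking genes of highest level with 199, 134 and 78.3 normalized counts per kilobase, had log2 ratios of 0.04, 0.24 and 0.03. *Dll3*, *Dll4* and *Dlk1* are listed in neither table, so the endothelial ligand *Dll4* has no value beside *Notch4*.

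Further genes known as Notch targets in other cells gave no common direction. Of 11, 7 had means of at least 10 and 0 were past the limit, with log2 ratios from -0.21 to 0.18 and a median of -0.12. *Ccnd1*, which encodes cyclin D1, led with 3193 normalized counts per kilobase and a log2 ratio of -0.21, followed by *Cdkn1a* with 549 and -0.12 and *Bhlhe40* with 319 and -0.01. *Nrarp*, a feedback inhibitor of the pathway, had -0.21 and *Hes6* -0.18, while *Myc* had 0.18 and *Sox9* 0.10. *Hes2*, *Hes5*, *Hes7* and *Hey2* are listed in neither table. Many of these genes are controlled by other pathways too.

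**Figure D3:**
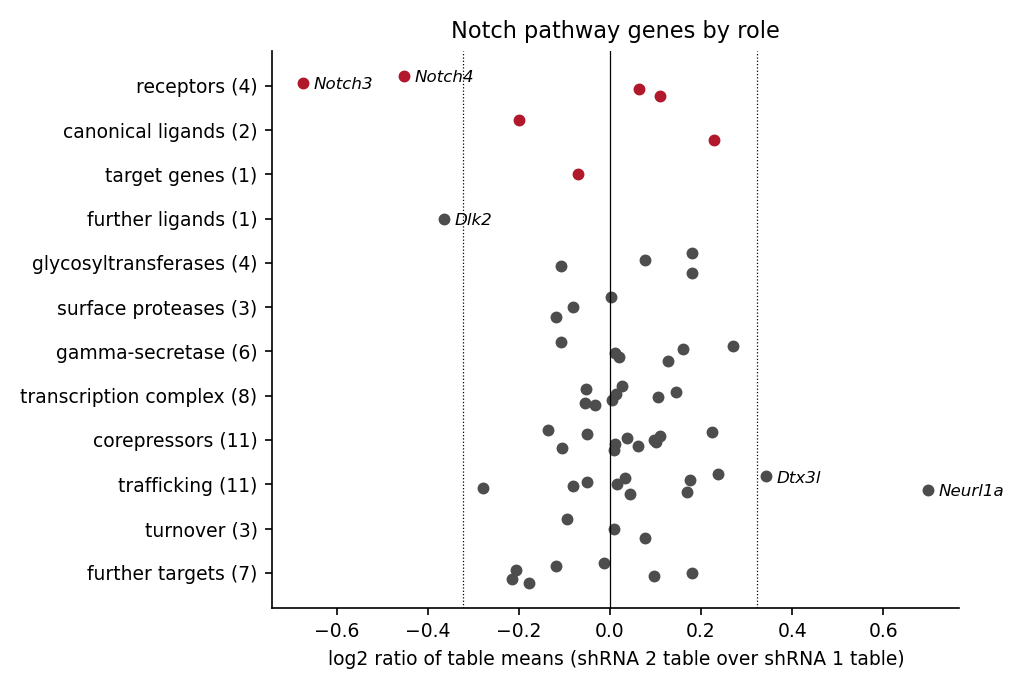
Log2 ratio of the shRNA 2 mean to the shRNA 1 mean for Notch pathway genes that reached a mean of 10 in each table, by role, with the number of genes in brackets. Red points are the genes of the first 3 rows described above and grey points the further list, each point is 1 gene, and dotted lines mark the limit of 0.32. *Notch3*, *Notch4* and *Dlk2* lie past the line on the left and *Dtx3l* and *Neurl1a* past that on the right.

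The cell type was checked against marker genes. Of 14 hepatocyte genes, 12 are in both tables and 10 reached a mean of 10, led per kilobase by *Krt18*, *Krt8* and *Ttr* with 6567, 4369 and 2057 normalized counts, while *Apoa2* is listed in neither and *Trf* could not be matched to 1 identifier. Of 7 cholangiocyte genes, 6 had such means, led by *Spp1* and *Krt19* with 2488 and 1476, so ductal markers stood beside hepatocyte markers. *Epcam* is not listed. Of 12 endothelial genes, 10 are listed in neither table, *Pecam1*, *Cdh5* and *Kdr* among them, and *Esam* and *Egfl7* had 13.5 and 2.08 normalized counts per kilobase. Of 9 mural and smooth muscle genes, 4 are listed in neither, *Pdgfrb* and *Acta2* among them, and *Mcam*, *Cnn1* and *Tagln* led with 14.6, 2.52 and 2.04. Of 8 stellate and fibroblast genes, *Col1a1* alone is listed, with 0.58. Of 7 macrophage genes 4 are listed, led by *Cd14*, *Cd68* and *Csf1r* with 316, 21.3 and 4.99, and of 6 lymphocyte genes 0. Summed over the list and per kilobase, the hepatocyte markers had 15362 in the shRNA 1 mean and 13821 in the shRNA 2 mean. Most of this sum was *Krt18*, with 7034 and 6101, and *Krt8*, with 4594 and 4143. It therefore gives no direction for the hepatocyte markers as a set. The log2 ratios of the hepatocyte markers went both ways, with *Fgb* at -0.60, *Alb* at -0.31 and *Serpina1a* at 0.36 all outside the middle 95% of their 500 nearest genes. The endothelial sum was 13.5 and 17.7, which rests on *Esam* with 11.3 and 15.7, while *Egfl7* had 2.20 and 1.96, so it gives no direction for that cell type. The mural sum was 24.4 and 19.5, of which *Mcam* had 16.0 and 13.2, and the other four listed mural genes had means below 10. The part of the marker genes in the values of *Notch3* and *Notch4* was not tested. The hairpin target *Srrm2* had deposited means of 3428 and 3759 normalized counts, a log2 ratio of 0.07 after alignment, and the depth of the knockdown against control cells is not given by these means.

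How far the means bear on the control cells can be stated as a range, with the 3 controls taken as common to both means. If the control mean of *Notch3* was below 181 normalized counts, both hairpin groups lay above it, and if it was above 288, both lay below it. In between, shRNA 1 lay above and shRNA 2 below the control. For *Notch4* the corresponding limits were 56.4 and 77.1 and for *Hes1* 223 and 234, with the same order in between. For *Jag1* they were 3651 and 4274, and in between the order was the reverse, with shRNA 1 below and shRNA 2 above the control. Group means cannot be negative, so the control mean was at most 362 for *Notch3*, 113 for *Notch4*, 7302 for *Jag1* and 446 for *Hes1*. All these limits rest on the aligned shRNA 2 means and move with the alignment. Before alignment the shRNA 2 mean of *Jag1* was 4481. For *Hes1* the deposited means were 234.2 and 233.9, which leave almost no range in between.

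**Figure D4:**
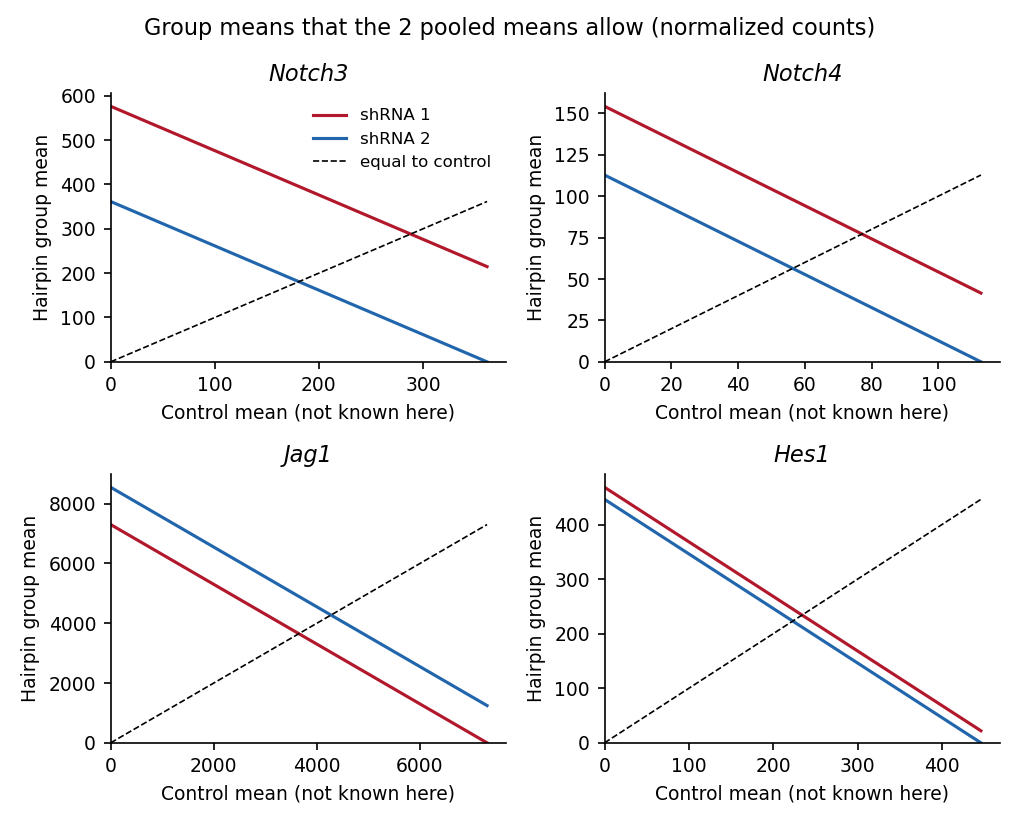
Group means of shRNA 1 (red) and shRNA 2 (blue) that the pooled means allow for each control mean (horizontal axis), all in normalized counts, for *Notch3*, *Notch4*, *Jag1* and *Hes1*. The vertical gap between the lines depends on the alignment used and is the same at every control mean. It is 215 for *Notch3*, 41.5 for *Notch4*, 1247 for *Jag1* and 22.1 for *Hes1*. The position of the lines against the dashed line of equality with the control depends on the control mean, which is not known here.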

How the data were processed

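RNA was sequenced from 9 AML12 libraries, grouped by their titles into control, shRNA 1 and shRNA 2. The authors trimmed the reads, aligned them to mm9 using TopHat2, retained unique pairs, counted GENCODE M1 genes with HTSeq and normalized with DESeq2 1.8.2, as the submitters' processing notes also list. The library type is not settled: polyA-enriched and strand-specific libraries were described beside a kit for total RNA, and the strand setting of the counting is not given in the sources used here. *Notch1*, *Notch3*, *Notch4* and *Dll1* overlap genes on the opposite strand.

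The deposited signal used here is the mean normalized count of each gene over 6 libraries, in a table of 13424 genes for shRNA 1 and one of 13478 for shRNA 2, whose means sum to 6144610 and 6393460. The tables also hold the authors' fold changes, standard errors, test statistics and p-values of each hairpin against control. These columns were not used. As no value per library was used, nothing was tested and the depth of single libraries is unknown.

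Means were aligned by the median log2 ratio (0.07) of the 7757 genes at 100 or more in both tables. Ratios, 2 times the differences and levels per kilobase of merged exons were computed. The controls were taken as common to both tables, which the labels state for 1 of the 3 libraries. Alignment assumes that the hairpin groups are equal for the median gene and that the control libraries were scaled alike in both tables. The 500 genes of nearest level give the spread among genes, not among replicates. The computation was tested on simulated counts with Poisson noise, planted changes far larger than the limit, and control libraries drawn anew for each mean. This checks the arithmetic and tests neither the assumption of shared controls nor the spread of replicates. GENCODE M1 is on NCBIM37, the assembly of mm9. Python 3.11.15, numpy 2.4.6, pandas 2.3.3 and matplotlib 3.10.9 were used.

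The genes and lists were chosen with earlier results of these data known. Named are all 10 Notch genes, up to 3 genes of highest level per list group, every further pathway gene past a log2 ratio of 0.32, and *Srrm2*, apart from some genes that are not reported here. Alternatives were other scales, ratios, minimum means and gene lengths. Hi-C data and the U2OS experiments were not analysed here.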

Additional observations from a re-analysis of the deposited data

How the results depend on the processing

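No paired analysis was possible because each table holds 1 mean over libraries, and for the same reason no replicate was left out. Each of the 3 other scales shifts the log2 ratios of all genes by 1 amount, no larger than the 0.07 of the alignment. All 27 log2 ratios of the 9 Notch genes so recomputed moved by less than the spread among genes of like level. Those past the limit of 0.32 on the log2 scale kept their sign. The size of the shifts fixed this outcome, so it is no check on single genes. Differences in normalized counts between hairpin groups and the limits on the control were computed with the main alignment only. The order of levels was the same in all 27 recomputations with another length or a single table. Each single mean is a part of the average that gave the main order, so their agreement was partly fixed in advance. *Notch3* stayed past the limit under every alternative tried and *Notch4* did not at a ratio of 1.5 or a minimum mean of 100, which each left 1 Notch gene lower with shRNA 2.

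At a ratio of 1.1, 1999 of 11451 genes lay lower and 2102 higher with shRNA 2. Among them were 1 of 7 Notch genes higher (*Jag1*), 3 lower, and 5 and 12 of 54 further pathway genes. At 1.5 there were 82 and 99 of 11451 genes, and 0 and 1 of 54 further pathway genes. With no minimum mean there were 864 and 891 of 13259 genes, with 1 of 9 Notch genes higher (*Dll1*) and 2 of 57 further pathway genes lower. With a minimum of 100 there were 198 and 128 of 7757 genes, with 1 of 45 further pathway genes higher. Without alignment there were 294 lower and 787 higher of 11451, against 490 and 460, and 0 of 54 further pathway genes lower. Fewer or more genes pass these limits by construction, and nothing is read from the counts of Notch or pathway genes. The missing error between replicates and the unknown depth limit every ratio, most of all below 10 normalized counts.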
